A study of Mus musculus with 90 samples.

Results

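The Hsd17b genes encode hydroxysteroid (17-beta) dehydrogenases, and 9 of them were taken by symbol from the table of 24422 mouse genes. Of these, 8 had a row (Hsd17b1, Hsd17b2, Hsd17b4, Hsd17b7, Hsd17b11, Hsd17b12, Hsd17b13 and Hsd17b14), and Hsd17b8 had none under that symbol. All 8 passed the filter on low counts. Hsd17b13 was chosen by its difference between the genotypes at the 2-cell (2c) stage, so every value of it that rests on 2c libraries is given as a description, with no test. The other members were taken for their family name.

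The enzymes move hydrogen between a hydroxyl and a keto group with NAD or NADP as the cofactor. They were named for the conversion of weak into potent estrogens and androgens and back, but several act on other lipids, in the synthesis of cholesterol, the elongation and peroxisomal breakdown of fatty acids, and at the surface of lipid droplets. The growing oocyte depends on the granulosa cells around it for steroid synthesis and holds its own stores of lipid and of maternal transcripts, which are degraded as the embryo starts to transcribe its own genome.

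Single MII oocytes, 2c embryos and 8-cell (8c) embryos were sequenced, each as 1 library of 5′ transcript ends, in 2 multiplexed pools, libA and libB, here pool A and pool B. All mice were of the CD-1 strain, and sexually mature females were superovulated. WT groups came from WT females. KO oocytes came from unmated females lacking Plag1, the gene of a zinc finger transcription factor, in every tissue, while mating such females to WT studs gave the matPlag1KO embryos, which are heterozygous, with the WT allele of the stud and no maternal one. Oocytes were collected 21 to 23 h after hCG, and the embryos, cultured from the zygote, at 45 to 47 h (2c) and 71 to 73 h (8c) after fertilization. The donor female of each library is not named, so p-values measure the spread between libraries, some of which may share a mother.

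Of 90 libraries, 78 were kept: 16 WT and 14 KO oocytes, 11 WT and 11 matPlag1KO 2c embryos, and 15 WT and 11 matPlag1KO 8c embryos. Their totals of gene counts ranged from 92475 to 2502421 and were lowest at 2c (median 148473 in WT and 163626 in matPlag1KO). Plag1 had 326 counts in WT and 4 in KO oocytes. At 2c it had 1 count in WT and 91 in the embryos labelled matPlag1KO, which carry the WT allele of the stud. This order is opposite to that in oocytes, and its cause was not tested. All groups are called by their labels. Levels are given as CPM, gene counts scaled to a common library total with TMM factors. The oocyte markers (Zp3, Gdf9, Bmp15, Oosp1) fell from a median sum of 5490 CPM in WT oocytes to 59.9 CPM in WT 8c embryos. Some stage markers also moved with the genotype. At 2c 4.92% of all tested genes were called between the genotypes in edgeR. Of the 4 oocyte markers 1 was called, Bmp15, with 394 CPM in WT and 1400 CPM in matPlag1KO (edgeR adjusted p = 0.011). Zp3 went the other way (143 and 74.4 CPM), and Gdf9 (293 and 344 CPM) and Oosp1 (2400 and 2760 CPM) differed less. Of 4 tested 2-cell markers 1 was called, Tdpoz4, with 16.7 and 170 CPM (edgeR adjusted p = 0.00142). Zscan4c (18.5 and 68.1 CPM), Zscan4d (14.2 and 20.2 CPM) and Zfp352 (277 and 303 CPM) were not called. At 8c 3 of 5 tested markers of that stage were called lower in matPlag1KO, beside 1.74% of all genes called in either direction. These were Krt18 (48.2 and 12.8 CPM), Krt8 (log2 fold change -1.91) and Cdx2 (41.8 and 9.49 CPM) (edgeR adjusted p = 0.0115, 0.0258 and 0.0471). Gata3 (76.1 and 31.7 CPM) and Nanog (65.8 and 55.3 CPM) were not called. The part of the stage markers in the genotype differences of the members was not tested. Of the 11 cumulus and granulosa markers, Ptx3 had 0 counts in every group, and the sum of the list reached at most 35.3 CPM in a library. Since a transcript gives 1 tag at its 5′ end, CPM were compared between genes without division by length.

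Hsd17b13 and Hsd17b11, the members associated with lipid droplets, lie next to each other on the minus strand of chromosome 5 (mm9, 104384461 to 104406407 and 104418784 to 104450815), with 12376 bases between them. RefSeq gave the start region of 4 members in build GRCm38.p6. The 250 bases before the start are shown for these, in gene orientation, since no start region was matched for the other members. The 4 are the 2 neighbours, which differ in their levels, and the 2 leading members in oocytes. All 4 lie on the minus strand: chr5:103977389-103977638 (Hsd17b13), chr5:104021797-104022046 (Hsd17b11), chr1:169969206-169969455 (Hsd17b7) and chr2:94157910-94158159 (Hsd17b12). Capitals mark the letters CCAAT and GGGCGG on either strand:
Hsd17b13: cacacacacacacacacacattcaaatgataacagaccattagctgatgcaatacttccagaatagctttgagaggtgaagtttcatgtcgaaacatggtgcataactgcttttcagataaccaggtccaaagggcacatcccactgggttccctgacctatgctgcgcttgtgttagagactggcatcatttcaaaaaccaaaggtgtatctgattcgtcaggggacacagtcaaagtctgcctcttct
Hsd17b11: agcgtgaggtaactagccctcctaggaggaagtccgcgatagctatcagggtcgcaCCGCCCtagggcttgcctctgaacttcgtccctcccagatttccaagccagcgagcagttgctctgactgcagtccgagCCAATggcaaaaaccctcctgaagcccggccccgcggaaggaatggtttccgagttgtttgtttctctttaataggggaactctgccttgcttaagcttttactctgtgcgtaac
Hsd17b7: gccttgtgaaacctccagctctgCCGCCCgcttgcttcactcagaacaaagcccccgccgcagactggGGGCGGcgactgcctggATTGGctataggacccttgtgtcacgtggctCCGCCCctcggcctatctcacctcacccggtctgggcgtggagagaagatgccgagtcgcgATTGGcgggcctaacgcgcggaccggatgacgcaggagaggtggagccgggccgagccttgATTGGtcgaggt
Hsd17b12: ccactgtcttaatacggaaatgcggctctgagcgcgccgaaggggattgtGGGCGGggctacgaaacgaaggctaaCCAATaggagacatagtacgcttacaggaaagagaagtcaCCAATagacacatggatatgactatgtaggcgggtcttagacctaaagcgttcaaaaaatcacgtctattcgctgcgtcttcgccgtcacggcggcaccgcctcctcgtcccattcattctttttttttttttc

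The region of Hsd17b13 held neither CCAAT nor GGGCGG and had 3 CpG, against a median of 6 over 32851 mouse promoters of the same length. Hsd17b11 had 13 CpG, Hsd17b12 20 and Hsd17b7 23. CCAAT was found 3 times before Hsd17b7, 2 times before Hsd17b12 and 1 time before Hsd17b11, and in 33.8% of all promoters. GGGCGG was found 3 times before Hsd17b7 and 1 time each before Hsd17b12 and Hsd17b11, and in 32.7% of all promoters. TATAAA was in none of the 4 regions and in 12.4% of all promoters. A match to the PLAG1 consensus, on either strand, was found before Hsd17b11 alone among the 4, where it overlapped the GGGCGG match, and in 16.8% of all promoters. These matches describe the letters in the window and not the binding of a factor. The authors scanned a wider window on both sides of the start, with a longer PLAG1 motif of their own. That motif and window were not searched here, so the matches do not show whether a member has the authors' motif.

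In MII oocytes the family was led by Hsd17b7, the keto reductase of cholesterol synthesis, and Hsd17b12, the keto reductase of very long chain fatty acid elongation. The mean of Hsd17b7 was 108 ± 42.4 CPM (SD, n = 16) in the WT and 107 ± 20.6 CPM (SD, n = 14) in the KO. Hsd17b12 had 88.2 ± 28.2 CPM (SD, n = 16) and 89.8 ± 33.5 CPM (SD, n = 14). The 2 genes lay within 1 SD of each other, and both were over 2 times as high as the next member, Hsd17b4, the multifunctional enzyme of peroxisomal beta-oxidation, with 30.0 ± 13.6 and 41.2 ± 23.4 CPM. Hsd17b13 came next, within 1 SD of Hsd17b4. Hsd17b2, which oxidises estradiol and testosterone, followed with 5.12 ± 6.41 and 7.86 ± 9.96 CPM. Hsd17b11 and Hsd17b14 had at most 4 counts in a genotype, and Hsd17b1, which makes estradiol in granulosa cells, had 0 counts in all 30 oocytes.

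At 8c the order was another. Hsd17b14, a cytosolic member, led, at 144 ± 50.5 CPM (SD, n = 15) in the WT and, in the matPlag1KO, 203 ± 122 CPM (SD, n = 11). Hsd17b12 followed, above Hsd17b4 and Hsd17b7, which lay within 1 SD of each other. Hsd17b13 had 0 counts in all 26 8c embryos.

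**Figure D1:**
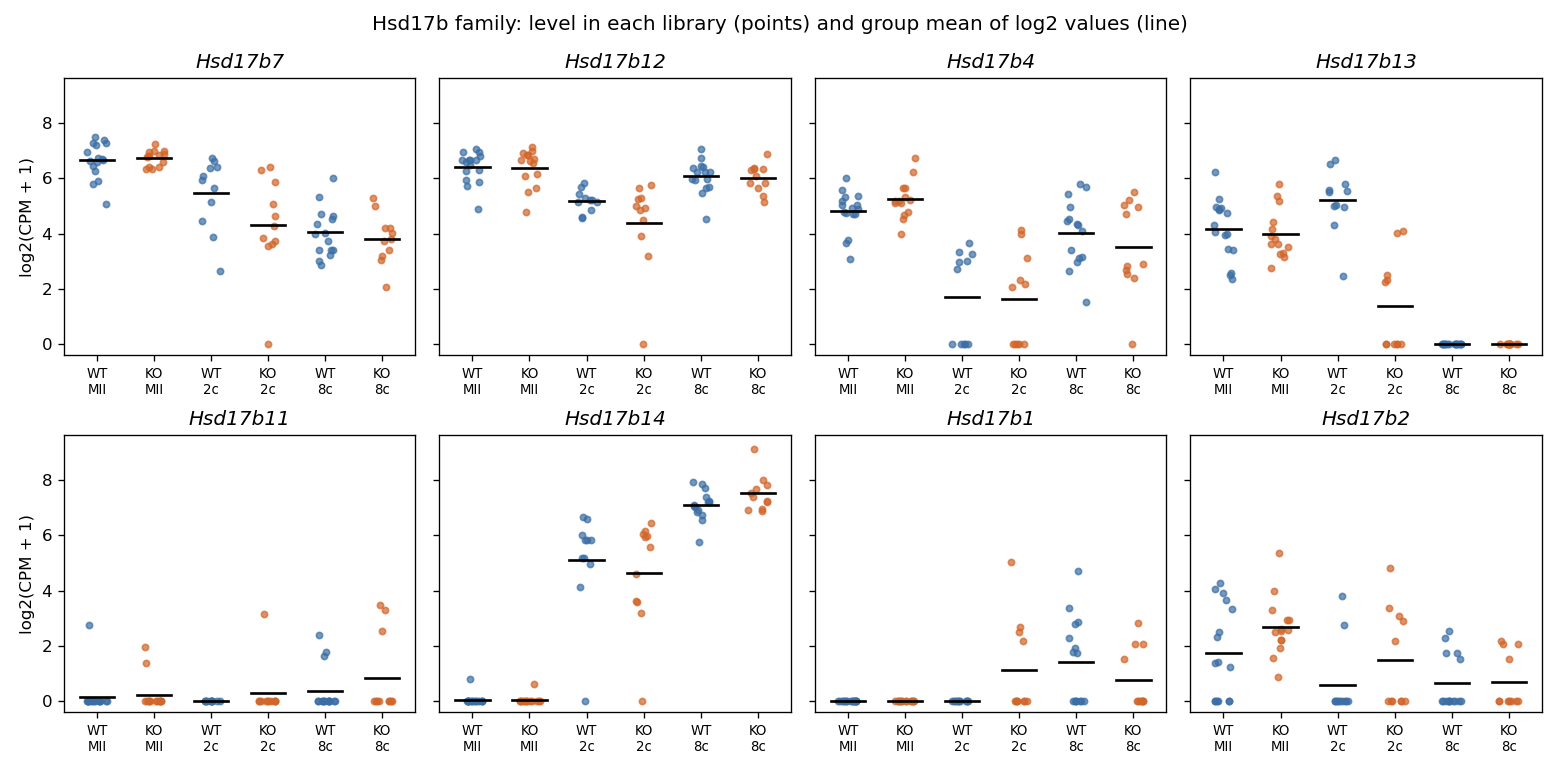
Level of each of the 8 genes in each of the 78 libraries, as log2(CPM + 1) on the vertical axis, by group on the horizontal axis (WT blue, KO and matPlag1KO orange; points are libraries, lines the mean of the log2 values). Hsd17b7, Hsd17b12 and Hsd17b4 have their highest group means in oocytes, and the ranges of Hsd17b12 and Hsd17b4 there overlap those at 8c. Hsd17b14 is near 0 in oocytes and highest at 8c, and Hsd17b13 is at 0 in every 8c library.

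Hsd17b13, a lipid droplet protein best known from the liver, was present in every oocyte. In WT oocytes it ranged from 4.15 to 73.6 CPM (median 17.3, 151 counts), and in KO oocytes from 5.72 to 54.2 CPM (median 12.1, 172 counts). The ranges overlapped, and the genotypes were not called different (log2 fold change -0.22, SE 0.41, edgeR adjusted p = 1). The ratio of WT to KO counts was 0.972 (95% counting interval 0.776 to 1.22, which covers counting error only).

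At 2c, where Hsd17b13 was chosen, it ranged from 4.56 to 99.0 CPM in WT (median 44.7, 85 counts in 11 of 11 libraries). In matPlag1KO it ranged from 0 to 16.2 CPM (median 0, 10 counts in 5 of 11 libraries). One WT library, with 1 count, lay inside the range of matPlag1KO, and the other WT libraries lay above all matPlag1KO libraries. The fitted log2 fold change was -3.35 (SE 0.61), and the ratio of matPlag1KO to WT counts was 0.104. No interval is given, since this value chose the gene. The means were 41.5 CPM in WT and 4.99 CPM in matPlag1KO in pool A, and 47.1 and 3.19 CPM in pool B. Among the 2c libraries left out for low signal, the 3 of WT held 12 Hsd17b13 counts and the 3 of matPlag1KO held 0.

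**Figure D2:**
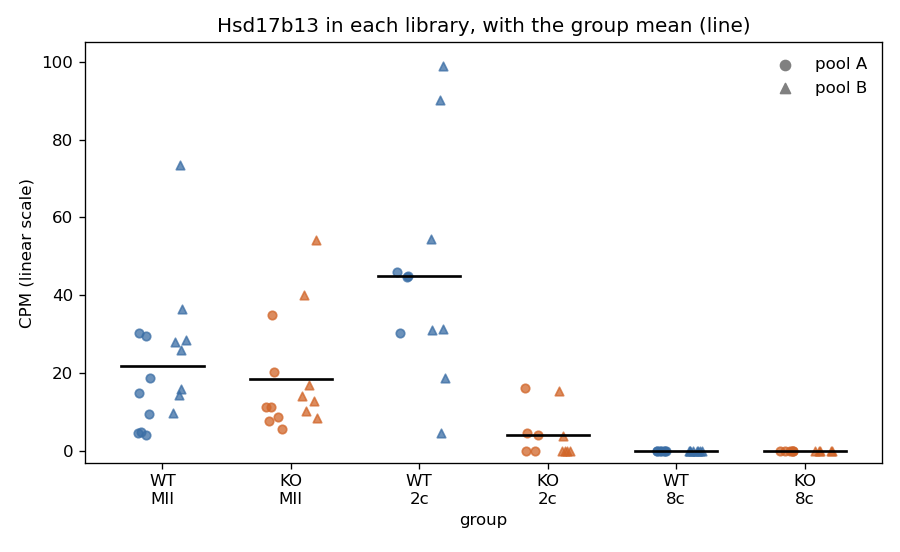
Hsd17b13 in CPM (vertical axis, linear) in each library of the 6 groups (horizontal axis), with circles for pool A, triangles for pool B and a line at the group mean. WT 2c libraries reach 99.0 CPM, matPlag1KO 2c libraries at most 16.2 CPM, and all 8c libraries are at 0.

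Between stages, the libraries were scaled to their counts of the 92 spike-in RNAs added in equal amount. By this scale Hsd17b13 had 0.946 ± 0.575 counts per 1000 spike-in counts (SD, n = 16) in WT oocytes and 0.833 ± 0.442 (SD, n = 11) in WT 2c embryos, and its log2 fold change was -0.18 (SE 0.45). The median tested gene changed by -1.46 over the same interval. On TMM-scaled gene counts, where the gene is set against the other transcripts of the same library, the change was 1.07. Each library is a whole oocyte or embryo, so that the spike-in scale gives the level per oocyte or embryo and not per cell. In KO it went from 1.24 ± 0.772 (SD, n = 14) to 0.0868 ± 0.133 (SD, n = 11), a log2 fold change of -3.61 (SE 0.56), beside a median of -1.42 over all tested genes. As a ratio of pooled counts, KO oocytes held 13.1 times the level of matPlag1KO 2c embryos on the spike-in scale and 2.90 times on gene counts.

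From MII to 8c, which uses no 2c library, Hsd17b13 fell in both genotypes (edgeR, adjusted p = 2.04e-14 in WT and 3.41e-12 in KO). With 0 counts in 15 WT 8c embryos it was at least 53.9-fold lower than in WT oocytes. With 0 counts in 11 matPlag1KO embryos it was at least 42.9-fold lower than in KO oocytes. Both bounds are on the spike-in scale and take 3 counts over all embryos of a group as the floor. They leave out the counting error of the oocyte counts. That floor was 0.371 CPM in WT and 0.665 CPM in matPlag1KO.

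The neighbours of Hsd17b13 were read beside it. Hsd17b11 had 2 counts in WT oocytes, 0 in WT 2c and 4 in WT 8c embryos, with 4, 1 and 10 in the KO groups, far under Hsd17b13 in oocytes and WT 2c embryos. Klhl8, on the other side, was at 137 ± 32.7 CPM in WT 2c embryos and at 126 ± 32.6 CPM in those labelled matPlag1KO (SD, n = 11 each) (log2 fold change -0.11, SE 0.33, edgeR adjusted p = 0.910). It had 13 counts in WT and 7 in matPlag1KO 8c embryos. Aff1 had a log2 fold change of 0.08 (SE 0.34, edgeR adjusted p = 0.962) at 2c, and Nudt9 one of 2.47 (SE 1.42, edgeR adjusted p = 0.314) on 0 and 3 counts. Mir5619 had 0 counts in every group. The longest stretch of identical bases between transcripts of Hsd17b13 and Hsd17b11 was 20 bases, the longest of any pair of members, and no member's interval overlapped another gene of the table.

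The 5 genes whose pattern was most like that of Hsd17b13 over the 78 libraries, among 10840 genes that reached a group mean of 10 CPM, were Esco1 (Pearson's r of log2(CPM + 1) 0.799), Fbxo8 (0.793), Scoc (0.791), Cmya5 (0.789) and Acsl3 (0.789). All had lower means at 8c than in oocytes. The 78 libraries cover 3 stages and include the 2c libraries that chose Hsd17b13. These values therefore describe stage and genotype together, with no test. At 2c Esco1 had 276 CPM in WT and 213 CPM in matPlag1KO, and Scoc had 255 and 137 CPM. Since Hsd17b13 was chosen for its difference at 2c, its genotype difference is not compared with theirs.

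Beside Hsd17b13, the genotype comparison was read for the other members at each stage. In oocytes 0 of 8 members were called in edgeR's quasi-likelihood test at an adjusted p under 0.05, as were 0.781% of the 16511 genes tested, and 0 had an unadjusted p under 0.05. The log2 fold changes of the members ran from -0.30 to 0.57 (median 0.01, beside 0.00 over all genes). DESeq2 called 0 members as well, with no adjusted p for Hsd17b1 and Hsd17b11.

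At 2c, without Hsd17b13, 0 of 7 members were called, beside 4.92% of all genes, and 2 had an unadjusted p under 0.05. DESeq2 called 0, with no adjusted p for Hsd17b1, Hsd17b2 and Hsd17b11. The median log2 fold change of the 7 was 0.06, beside 0.12 over all genes. Hsd17b7 ranged from 5.21 to 106 CPM in WT (median 60.1) and from 0 to 84.5 CPM in matPlag1KO (median 18.4). The ranges overlapped, and the log2 fold change was -0.85 (SE 0.40, p = 0.0363, adjusted p = 0.201 in edgeR). Hsd17b12 had 36.5 ± 10.4 CPM in WT and 28.0 ± 16.4 CPM in matPlag1KO (SD, n = 11 each).

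Hsd17b1 had 0 counts in the 11 WT 2c embryos and 7 counts in 4 of the 11 matPlag1KO embryos, or at least 2.07-fold more when WT is set to its floor of 3 counts (edgeR, p = 0.00391, adjusted p = 0.0633). Of the 7 counts, 4 came from matPlag1KO replicate 1. Without that library 3 counts remained, which is the floor, and the log2 fold change went from 3.82 to 2.51 (adjusted p = 0.251 in edgeR). The difference was called with median-ratio scaling (adjusted p = 0.0421 in edgeR) and without matPlag1KO replicate 4, which held none of the counts (adjusted p = 0.0495 in edgeR), and not with spike-in totals (adjusted p = 0.0901 in edgeR). The difference of its genotype effect between 2c and 8c had an adjusted p of 0.0519 in edgeR. The 11 cumulus and granulosa markers, cells that express Hsd17b1 in the ovary, summed to 0 to 16.8 CPM in WT (median 0) and 0 to 35.3 CPM in matPlag1KO 2c embryos (median 4.06), with 6 of 11 having a count in each. Their part in the result was not tested.

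At 8c 0 of 8 members were called, beside 1.74% of all genes. DESeq2 called 0, again with no adjusted p for these 3, and 1 member, Hsd17b11, had an unadjusted p under 0.05 in edgeR. It had 4 counts in 3 of 15 WT and 10 counts in 3 of 11 matPlag1KO embryos (log2 fold change 1.54, SE 0.76, adjusted p = 0.346 in edgeR). Hsd17b14 ranged from 52.4 to 241 CPM in WT (median 135) and from 117 to 546 CPM in matPlag1KO (median 166). These ranges overlapped, and the log2 fold change was 0.49 (SE 0.30, adjusted p = 0.480 in edgeR). The genotype effect itself differed between 2c and MII for 0 of 7 members (3.31% of all genes), of which 0 had an unadjusted p under 0.05, and between 2c and 8c for 0 of 7 (2.30% of all genes), of which 1, Hsd17b1, did. DESeq2 called 0 in both, without an adjusted p for Hsd17b1, Hsd17b2 and Hsd17b11.

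**Figure D3:**
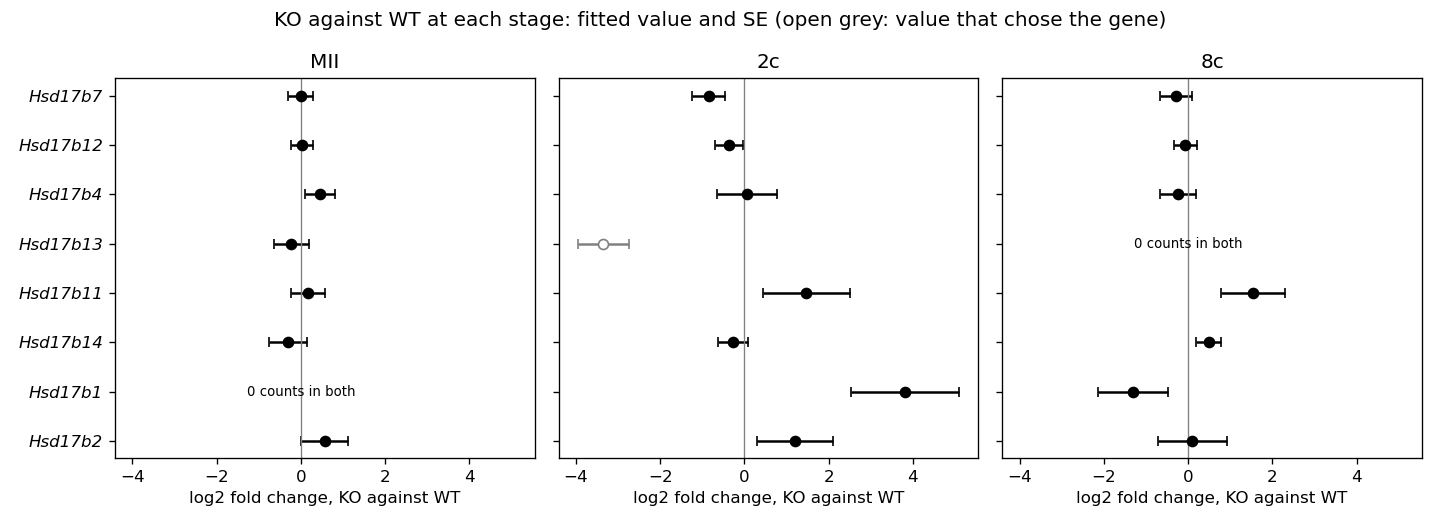
Log2 fold change of KO or matPlag1KO against WT (horizontal axis) for each member (vertical axis) at MII, 2c and 8c, as fitted values from edgeR. Bars are the approximate SE, derived from the log2 fold change and its F statistic. The open grey point is Hsd17b13 at 2c (-3.35), the value that chose the gene, and filled points are members for which the comparison was tested, 0 of which were called.

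Calls of members across stages are given beside the shares over all genes, and no difference from those shares was tested. Counts of members below leave out Hsd17b13 wherever 2c libraries enter. From MII to 2c, 4 of 7 members fell and 1 rose in WT, beside 51.3% and 14.1% of all genes, and 4 fell and 2 rose in KO, beside 50.3% and 13.5%. From 2c to 8c, 4 of 7 rose and 0 fell in WT, beside 31.9% and 16.2% of all genes, and 4 rose and 0 fell in KO, beside 29.1% and 19.5%. From MII to 8c, 5 of 8 fell and 2 rose in WT, beside 43.6% and 27.1%, and 5 fell and 2 rose in KO, beside 45.2% and 24.1%. Stage comparisons within a genotype share libraries. The median log2 fold change of the 7 members from MII to 2c was -2.47 in WT and -2.22 in KO, beside -1.46 and -1.42 over all genes. The members called higher at 2c were Hsd17b14 in both genotypes and Hsd17b1 in KO, and those called higher at 8c than at 2c were Hsd17b14, Hsd17b12 and Hsd17b4 in both, Hsd17b1 in WT and Hsd17b11 in matPlag1KO. Hsd17b1 in these calls rests on at most 26 counts a group, and Hsd17b11 on 1 and 10 counts, with an adjusted p of 0.0196 in edgeR that became 0.119 with TMM scaling. The Hsd17b1 calls were lost with DESeq2 (adjusted p = 0.332 from MII to 2c in KO and 0.148 from 2c to 8c in WT) and in pool B alone (edgeR adjusted p = 0.0588 and 0.0516).

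Hsd17b7 fell from 5.91 ± 4.12 counts per 1000 spike-in counts (SD, n = 16) in WT oocytes to 1.06 ± 0.601 (SD, n = 11) at 2c, a log2 fold change of -2.47 (SE 0.43, edgeR adjusted p = 8.20e-07). In KO the log2 fold change was -3.57 (SE 0.46, edgeR adjusted p = 2.63e-10). Between 2c and 8c it was not called on the spike-in scale, with log2 fold changes of -0.57 (SE 0.41, edgeR adjusted p = 0.253) in WT and -0.21 (SE 0.46, edgeR adjusted p = 0.732) in matPlag1KO. With TMM scaling both were called lower at 8c (log2 fold change -1.53, edgeR adjusted p = 0.000223 in WT and -0.96, edgeR adjusted p = 0.0447 in matPlag1KO).

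Hsd17b12 and Hsd17b4 fell and then rose. Hsd17b12 went from 4.47 ± 1.98 counts per 1000 spike-in counts in WT oocytes to 0.705 ± 0.207 at 2c and 2.59 ± 1.09 at 8c. Its log2 fold changes in WT were -2.65 (SE 0.35, edgeR adjusted p = 3.69e-10) and then 1.86 (SE 0.34, edgeR adjusted p = 3.22e-06). In KO they were -3.35 and 1.96. Hsd17b4 fell further, from 382 counts in 16 of 16 WT oocytes to 9 counts in 6 of 11 WT 2c embryos, and had 128 counts in 15 of 15 WT 8c embryos. Its log2 fold changes in WT were -4.50 (SE 0.66, edgeR adjusted p = 9.18e-09) and 2.96 (SE 0.65, edgeR adjusted p = 7.95e-05), and in KO -4.96 and 2.50, of which the rise was not called in pool B alone (1.59, edgeR adjusted p = 0.133). From MII to 8c both genes were called lower in both genotypes on the spike-in scale. With TMM scaling the call of Hsd17b12 was lost in WT and KO (edgeR adjusted p = 0.245 and 0.170) and that of Hsd17b4 in WT (edgeR adjusted p = 0.186), and all 3 were also lost in pool B alone (edgeR adjusted p = 0.836, 0.133 and 0.494).

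Hsd17b14 went the other way. Only 1 of 16 WT oocytes held it, with 2 counts, and 1 of 14 KO oocytes, with 1 count. In WT embryos it then had 103 counts at 2c and 907 at 8c, and in matPlag1KO embryos 104 and 745. The ratio of WT 2c to WT MII counts on the spike-in scale was 79.6 (95% counting interval 21.5 to 666), and that of matPlag1KO 2c to KO MII counts 136 (95% counting interval 23.9 to 5430). The rise from 2c to 8c had log2 fold changes of 2.40 (SE 0.42, edgeR adjusted p = 1.19e-06) in WT and 2.93 (SE 0.44, edgeR adjusted p = 3.61e-08) in matPlag1KO.

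**Figure D4:**
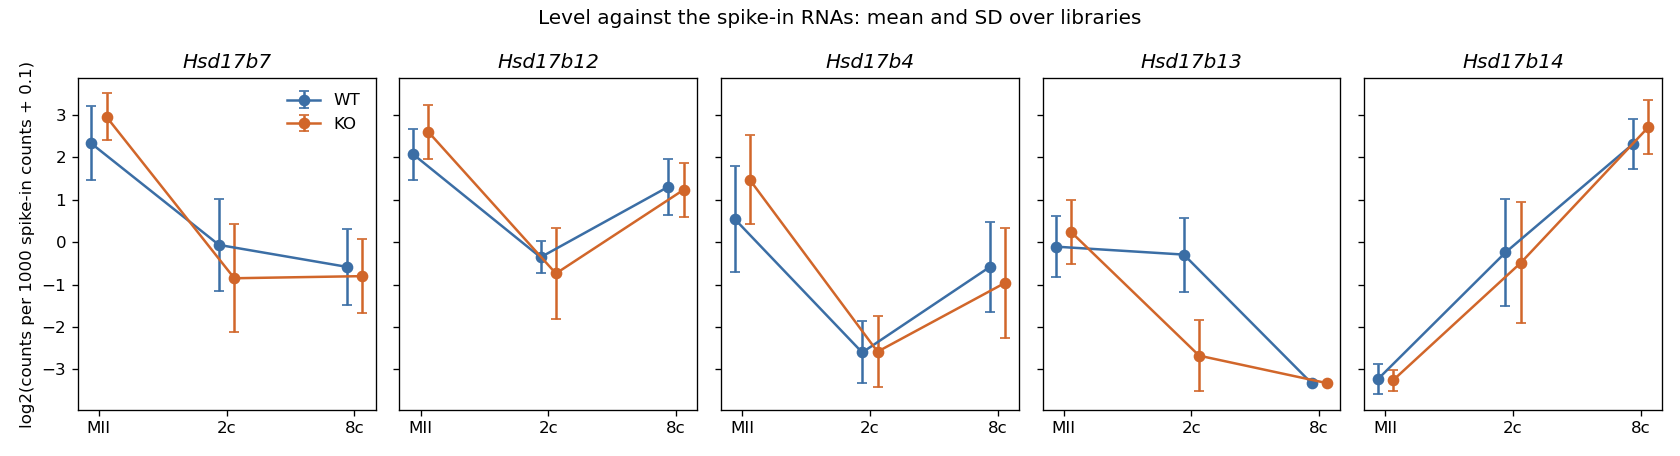
Mean and SD over libraries of log2(counts per 1000 spike-in counts + 0.1) (vertical axis) at MII, 2c and 8c (horizontal axis) in WT (blue) and KO or matPlag1KO (orange) for the 5 most abundant members. Hsd17b7, Hsd17b12 and Hsd17b4 are lower at 2c than in oocytes in both genotypes, and Hsd17b14 is higher. For Hsd17b13 from MII to 2c, edgeR fitted log2 fold changes of -0.18 in WT (1.07 with TMM scaling) and -3.61 in KO. These fitted values are not the distances between the drawn means.

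Hsd17b2 and Hsd17b1 had few counts. Hsd17b2 fell from 55 counts in 10 of 16 WT oocytes to 4 counts in 2 of 11 WT 2c embryos (log2 fold change -2.82, SE 0.78, edgeR adjusted p = 0.00111) and from 74 to 11 counts in KO (-2.22, SE 0.72, edgeR adjusted p = 0.00548). With TMM scaling neither was called (edgeR adjusted p = 0.168 and 0.448). Hsd17b1 had 0 counts in oocytes and rose to 26 counts in 8 of 15 WT 8c embryos (edgeR adjusted p = 4.12e-05). In matPlag1KO 8c embryos it rose to 6 counts in 4 of 11 (edgeR adjusted p = 0.00479). DESeq2 called neither rise (adjusted p = 0.0692 and 0.402). Against the floor of 3 counts in oocytes, the 8c levels were 8.10-fold and 2.67-fold more on the spike-in scale. These values leave out the counting error of the 26 and 6 counts.

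Relatives outside the list were read in the same way. Hsd17b10, a mitochondrial member that breaks down branched amino acids, went from 8 counts in WT oocytes to 28 at 2c and 457 at 8c, and was not called between the genotypes at 2c (log2 fold change -1.40, SE 0.65, adjusted p = 0.192 in edgeR). H2-Ke6, which RefSeq lists as a synonym of Hsd17b8 and which was looked up after its values were seen, had 23 counts in WT and 13 in KO oocytes and at most 4 counts in each later group. Hsd17b3 had at most 5 counts in a group and Hsd17b6 at most 15.

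The pathways of the members were described by lists of their other genes. Cholesterol synthesis, the pathway of Hsd17b7, had 22 tested genes. In WT, 10 of these were lower and 4 higher at 2c than at MII, and 13 were higher and 0 lower at 8c than at 2c. Over all genes these shares were 51.3% lower and 14.1% higher, and then 31.9% higher and 16.2% lower. Ebp, a sterol isomerase, rose from 20.7 CPM at 2c to 213 CPM at 8c in WT (log2 fold change 4.30 on the spike-in scale, SE 0.54, edgeR adjusted p = 1.12e-10). Peroxisomal beta-oxidation, the pathway of Hsd17b4, had 17, of which 8 were lower and 2 higher at 2c than at MII in WT, beside the same 51.3% and 14.1%. Pecr, a peroxisomal enoyl reductase, fell from 1030 to 134 CPM (log2 fold change -4.56 on the spike-in scale, SE 0.42, edgeR adjusted p = 2.97e-16), and Crot, a carnitine acyltransferase, rose from 5.87 to 143 CPM (3.30, SE 0.44, edgeR adjusted p = 4.58e-10). The median log2 fold changes from MII to 2c in WT were -1.11 and -1.16, beside -1.46 over all genes. Between the genotypes at 2c, edgeR called 0 of 22 and 0 of 17, beside 4.92% of all genes.

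In the list of very long chain fatty acid elongation, the pathway of Hsd17b12, 2 of 16 tested genes were lower in matPlag1KO at 2c and 0 higher, beside 4.92% of all genes in either direction. Hacd3, a dehydratase of the cycle, had 69.5 CPM in WT and 18.4 CPM in matPlag1KO (log2 fold change -1.94, SE 0.50, edgeR adjusted p = 0.0125). Elovl6, an elongase, had 151 and 57.9 CPM (-1.36, SE 0.39, edgeR adjusted p = 0.0259). The median of the list was -0.09, beside 0.12 over all genes. Of 26 tested lipid droplet genes, 1 was higher and 0 lower in matPlag1KO at 2c: Cidec, which enlarges lipid droplets, with a mean of 0 CPM in WT and 2.98 CPM in matPlag1KO (edgeR adjusted p = 0.0473). In WT, 17 of the 26 were lower and 3 higher at 2c than at MII (median log2 fold change -2.43), beside 51.3% and 14.1% of all genes (median -1.46). Pnpla3, a lipase of the droplet surface, fell from 587 to 33.4 CPM (log2 fold change -5.66 on the spike-in scale, SE 0.47, edgeR adjusted p = 2.38e-18). Of 9 tested genes of mitochondrial fatty acid synthesis 6 fell and 1 rose over that interval, and of 13 tested genes of steroid hormone synthesis and receptors 7 fell and 1 rose, where 51.3% of all genes fell and 14.1% rose. Esr2, an estrogen receptor, fell from 180 to 57.7 CPM (-3.08, SE 0.49, edgeR adjusted p = 7.06e-08), and 0 genes of either list were called between the genotypes at 2c in edgeR.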

How the data were processed

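The authors joined molecular identifiers, aligned to mm9 with TopHat and counted reads per gene with HOMER. They deposited raw counts, not normalized, of 24422 genes and 92 spike-ins for 90 libraries. A 5′ tag shows neither the isoform nor an intact transcript. After 12 libraries with a median CPM under 1 were left out, 16511 genes passed the filter on low values (1 CPM or more in 5 or more libraries). One edgeR 4.0.16 model (R 4.3.3) held a mean for each of the 6 groups. Genotypes were compared on TMM-scaled gene counts and stages on spike-in totals, by the quasi-likelihood test with Benjamini-Hochberg adjustment over all tested genes, and calls used an adjusted p under 0.05. DESeq2 1.42.0, other scalings and filters, single pools and left-out libraries were alternatives. The SE of a log2 fold change is its absolute value divided by the square root of the F statistic of that test. It is approximate and can be too small near the floor of counts (0.06 for Hsd17b14, genotype effect at 2c against MII). Counting intervals are exact at 95%. Scripts were tested on simulated data. No 2 kept libraries of a group were copies, since their chi-square per degree of freedom was 3.54 or more. The members and gene lists were chosen with earlier results of these data known. All members are described, and of each list up to 3 genes could be named, by lowest adjusted p among those reaching 10 CPM in a group. Start regions came from RefSeq, with 4 of 8 members matched.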

Additional observations from a re-analysis of the deposited data

Results flagged for a closer look

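The genotype effect on Plag1, KO or matPlag1KO against WT, differed between the stages by a test of the difference itself. It was higher at 2c than at MII by a log2 value of 11.24 (SE 1.10, edgeR adjusted p = 6e-13) and higher at 2c than at 8c by 5.66 (SE 1.38, edgeR adjusted p = 0.0151). For Cidec, a lipid droplet gene, the genotype effect was higher at 2c than at 8c by a log2 value of 4.96 (SE 1.33, edgeR adjusted p = 0.0274). It rests on low levels, with 0 counts in the WT 2c embryos and a mean of 2.98 CPM in matPlag1KO 2c embryos. For Zscan4c, a 2-cell marker, it was higher at 2c than at MII by 3.77 (SE 1.05, edgeR adjusted p = 0.0286). Groups of 11 to 16 libraries were not searched for single distant libraries.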

How the results depend on the processing

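The number of members called stayed within 1.5 times the reported one in all but 4 comparisons of a count with an alternative. Genotype at 2c gave 1 member, Hsd17b1, with median-ratio factors, and 0 to 1 when each 2c library was left out (1 without matPlag1KO replicate 4). The difference between 2c and 8c gave 1, also Hsd17b1, with all libraries and with median-ratio factors (adjusted p = 0.0328 and 0.0444 in edgeR). Of the log2 fold changes of single members, 631 kept direction and call, 35 had the same call with a value of 0.00 on one side, 20 lost the call, 9 gained it, 14 moved and 30 changed sign. The 631 and 35 include values with no call to keep, those of Hsd17b13 on 2c libraries and those with no adjusted p. These were counted there when they kept direction within 1 SE, and as moved when they lay further off. With TMM scaling, Hsd17b13 from MII to 2c in WT was 1.07 and Hsd17b11 in KO 0.28. Genotype at MII changed sign for Hsd17b11 with DESeq2 (-0.17) and in pool B (-0.94), for Hsd17b14 in pool B (0.58), for Hsd17b13 with spike-in totals (0.38) and in pool A (0.07), and for Hsd17b12 with all libraries (-0.02), DESeq2 (-0.01), median-ratio factors (-0.02) and in pool B (-0.22). Genotype at 2c did so in pool A for Hsd17b14 (0.41) and Hsd17b4 (-1.73), and Hsd17b4 ranged from -0.37 to 0.28 when a library was left out. Genotype at 8c did so for Hsd17b4 in pool A (0.03), Hsd17b2 and Hsd17b1 in pool B (-0.08 and 0.22), and Hsd17b12 with DESeq2 (0.02), median-ratio factors (0.01) and in pool A (0.15). From 2c to 8c, Hsd17b2 in WT was 0.06 with all libraries and 1.47 in pool B, and Hsd17b1 in KO was 0.61 in pool B. None of these sign changes was of a value called as reported, and the cause was not tested.

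Oocytes of opposite genotype share well names between the pools. Over 14 such pairs the deviations from the group means had a median r of 0.342 (lowest -0.0562), with 12 over 0.1. From the group means within a pool the median was 0.424 (lowest 0.148), with 14 over 0.1. No label gives a well a shared meaning. In these wells, with a pool term, edgeR called 0 members and 792 of 12978 genes at MII with a replicate block for the well, and 0 members and 34 of 12978 genes without the block, a fit chosen after seeing the data.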
